A study of Mus musculus with 6 samples.

Results

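The vascular endothelial growth factor (VEGF) ligands Vegfa, Vegfb, Vegfc and Pgf, their receptor kinases Flt1, Kdr and Flt4 and the coreceptors Nrp1 and Nrp2 were measured in NG2+EGFP- cells sorted from mouse tumors. These 9 genes were taken by name out of 22180 genes on the array. A gene was represented by a probe set annotated to exactly 1 gene symbol and, where it had several, by the one with the highest mean over the 6 arrays. Each of the 9 had 1 such probe set, and no other probe set named it. None of the 9 passed the test between FGF-2 tumors and vector tumors. The largest differences were those of the receptors Kdr (1.51-fold higher mean in FGF-2 tumors, 95% interval 1.01 to 2.25) and Flt1 (1.32-fold, 1.00 to 1.74), and their groups of arrays overlapped.

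The FGF-2 group was 3 biological samples from T241 fibrosarcomas, a mouse tumor line that had been made to overexpress human FGF-2. The vector group was 3 biological samples from T241 tumors that carried the vector without human FGF-2. In both groups the tumor cells carried GFP and were implanted under the skin of C57BL/6 mice, for which the methods give female animals between 6 and 8 weeks of age, and tumors were of similar size when cells were taken. Tumors were digested with collagenase, and cells that bound an antibody to NG2, the proteoglycan encoded by Cspg4, and lacked GFP were sorted by flow cytometry, which leaves host cells. The sources used here do not say whether the tumor lines were single clones or whether a sample pooled several mice. RNA of every sample went onto an Affymetrix mouse gene array of its own, and values are log2 expression levels as the authors deposited them, on which 1 unit is a doubling. Levels of different genes come from different probe sets and are not compared with each other.

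VEGF ligands are secreted dimers that bind receptor tyrosine kinases on endothelial cells and drive the growth, survival and permeability of vessels. VEGF-A acts mainly through VEGFR2, encoded by Kdr. VEGFR1, encoded by Flt1, binds VEGF-A tightly with weak kinase activity and also binds VEGF-B and placental growth factor. VEGF-C and VEGF-D act through VEGFR3, encoded by Flt4, which is best known from lymphatic vessels. Neuropilins bind some VEGF isoforms and class 3 semaphorins beside these receptors. In tumors, hypoxia raises Vegfa transcription, and pericytes, fibroblasts and macrophages are all known sources of VEGF-A.

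The arrays had medians between 4.93 and 5.01, and the correlation between any pair of arrays over all genes lay between 0.983 and 0.994. Marker lists checked the label of perivascular cells. Of 20 pericyte and smooth muscle markers, 6 were higher in FGF-2 tumors and 0 were lower, with a median log2 difference of 0.64 and array means of 6.52 to 6.84 in FGF-2 tumors and 5.91 to 6.06 in vector tumors. Of 18 fibroblast markers, 8 were higher and 0 lower, with a median of 0.82 and array means of 7.28 to 7.63 in FGF-2 tumors and 6.08 to 6.72 in vector tumors. Cspg4 read 6.13, 6.10 and 6.00 in FGF-2 tumors and 5.66, 5.50 and 5.85 in vector tumors (log2 difference 0.41, limma adjusted p = 0.161). Macrophage and monocyte markers were measured in both groups, with array means of 10.43 to 10.63 in FGF-2 tumors and 10.36 to 10.72 in vector tumors, and 0 of 20 were higher and 2 lower (Cx3cr1 and Lyz1), both of which passed on leaving out single arrays only without replicate 3 of the vector group. Of other leukocyte markers, 1 of 13 neutrophil markers was higher (Mmp8) and 1 lower (Lcn2, which lost the call without replicate 1 or 2 of the FGF-2 group or replicate 1 of the vector group), 0 of 11 T and NK cell markers were called (2 lower without replicate 3 of the vector group), and 1 of 7 B cell markers was lower (Ighm). The fibroblast count of 8 was 2 without replicate 1 or replicate 2 of the FGF-2 group and 3 without replicate 1 of the vector group, and the pericyte count of 6 was 3 without replicate 1 of the FGF-2 group. The values below are therefore those of a mixed sorted population. In such bulk samples, fewer cells of a type and less RNA per cell cannot be told apart.

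**Figure D1:**
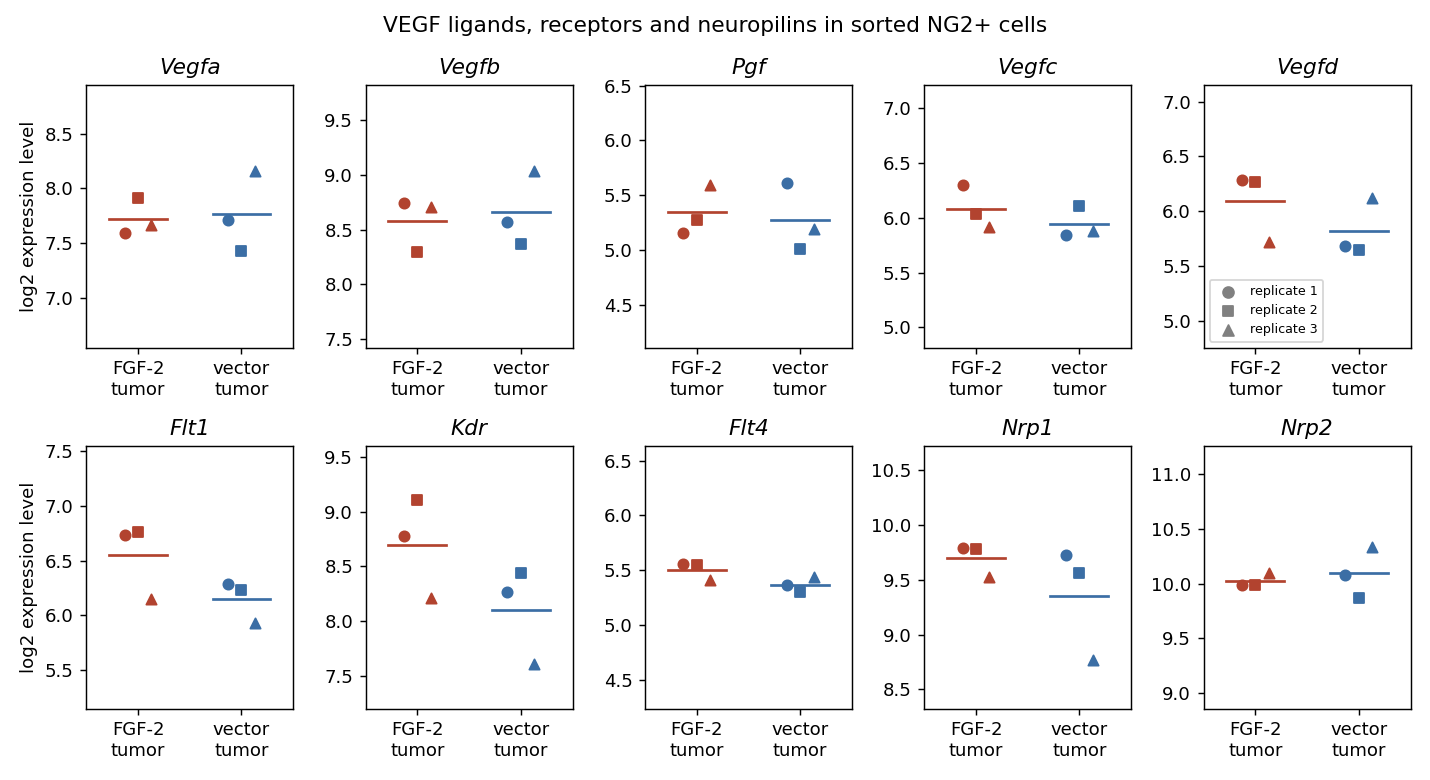
Log2 expression level of the 9 genes and of Vegfd on each array, with FGF-2 tumors at the left and vector tumors at the right of each panel, a marker shape for each replicate number and a line at the group mean of 3 arrays; all panels span the same number of log2 units. The groups overlap in every panel, and replicate 3 of the vector group has the lowest Kdr, Flt1 and Nrp1 level and the highest Vegfa, Vegfb and Nrp2 level.

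Among the ligands, Vegfa, the main angiogenic ligand, had log2 levels of 7.59, 7.91 and 7.67 in FGF-2 tumors and 7.71, 7.43 and 8.16 in vector tumors. The FGF-2 arrays lay inside the range of the vector arrays. Its means were 7.72 ± 0.17 in FGF-2 tumors and 7.77 ± 0.37 in vector tumors (SD, n = 3 each). The log2 difference was -0.04 with a 95% interval from -0.45 to 0.36 (limma, adjusted p = 0.943), which is a fold of 0.970 with bounds of 0.733 and 1.29. These bounds are the unadjusted interval of the estimate from 3 arrays a group and not a limit of detection. A call required an adjusted p under 0.05 over all genes, so changes larger than these bounds could be missed too.

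Vegfb, a ligand of VEGFR1 with a role in cardiac and metabolic tissue, read 8.75, 8.30 and 8.71 in FGF-2 tumors and 8.57, 8.37 and 9.03 in vector tumors. Here too the highest array was replicate 3 of the vector group. The log2 difference was -0.08 (interval -0.49 to 0.34, limma adjusted p = 0.896). Pgf, which encodes placental growth factor and acts through VEGFR1, read 5.16, 5.27 and 5.60 in FGF-2 tumors and 5.61, 5.01 and 5.19 in vector tumors. Its groups covered nearly the same range, and the log2 difference was 0.07 (interval -0.32 to 0.47, limma adjusted p = 0.893).

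Vegfc, a lymphangiogenic ligand, read 6.30, 6.04 and 5.92 in FGF-2 tumors and 5.84, 6.11 and 5.88 in vector tumors. Replicate 1 of the FGF-2 group was the highest of the 6 arrays, but its other arrays overlapped the vector group (log2 difference 0.14, interval -0.16 to 0.44, limma adjusted p = 0.674). Vegfd, the other ligand of VEGFR3 and not one of the 9 genes, read 6.28, 6.26 and 5.72 in FGF-2 tumors and 5.69, 5.64 and 6.12 in vector tumors. In each group replicate 3 stood apart from the other 2 arrays, low in the FGF-2 group and high in the vector group (log2 difference 0.27, interval -0.14 to 0.69, limma adjusted p = 0.532).

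Among the receptors, Kdr, which encodes the main signaling receptor of VEGF-A, read 8.78, 9.11 and 8.21 in FGF-2 tumors and 8.27, 8.44 and 7.61 in vector tumors. Replicates 1 and 2 of the FGF-2 group lay above all vector arrays, replicate 3 lay below 2 of them, and replicate 3 of the vector group was the lowest. The means were 8.70 ± 0.45 in FGF-2 tumors and 8.11 ± 0.44 in vector tumors (SD, n = 3 each). The log2 difference was 0.59 ± 0.26 (SE), with an interval from 0.02 to 1.17, and did not pass limma's test (unadjusted p = 0.0454, adjusted p = 0.330). An exact two-sided permutation test over the 6 arrays gave p = 0.3, where 0.1 is the smallest value that 3 against 3 arrays allow.

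Flt1, which encodes VEGFR1, read 6.73, 6.76 and 6.15 in FGF-2 tumors and 6.28, 6.23 and 5.93 in vector tumors. As for Kdr, the third replicate was the lowest of each group, and that of the FGF-2 group lay within the vector range. The log2 difference was 0.40 ± 0.18 (SE), with an interval from 0.00 to 0.80 (limma, unadjusted p = 0.0489 and adjusted p = 0.339; exact permutation p = 0.3). Flt4, which encodes VEGFR3, read 5.56, 5.55 and 5.41 in FGF-2 tumors and 5.36, 5.31 and 5.44 in vector tumors. Its arrays were close together, and replicate 3 of each group lay within the range of the other group (log2 difference 0.14, interval -0.10 to 0.37, limma adjusted p = 0.598).

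Of the coreceptors, Nrp1, which strengthens VEGF-A signaling through VEGFR2, read 9.79, 9.78 and 9.53 in FGF-2 tumors and 9.72, 9.56 and 8.77 in vector tumors. Its mean difference of 0.35 on the log2 scale (interval -0.15 to 0.85, limma adjusted p = 0.516) came with 1 vector array, replicate 3, well below the other 5, and was 0.056 without that array. Nrp2, a partner of VEGFR3 and of semaphorin receptors, read 9.99, 9.99 and 10.10 in FGF-2 tumors and 10.08, 9.87 and 10.34 in vector tumors. The vector arrays enclosed all FGF-2 arrays (log2 difference -0.07, interval -0.37 to 0.23, limma adjusted p = 0.858).

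**Figure D2:**
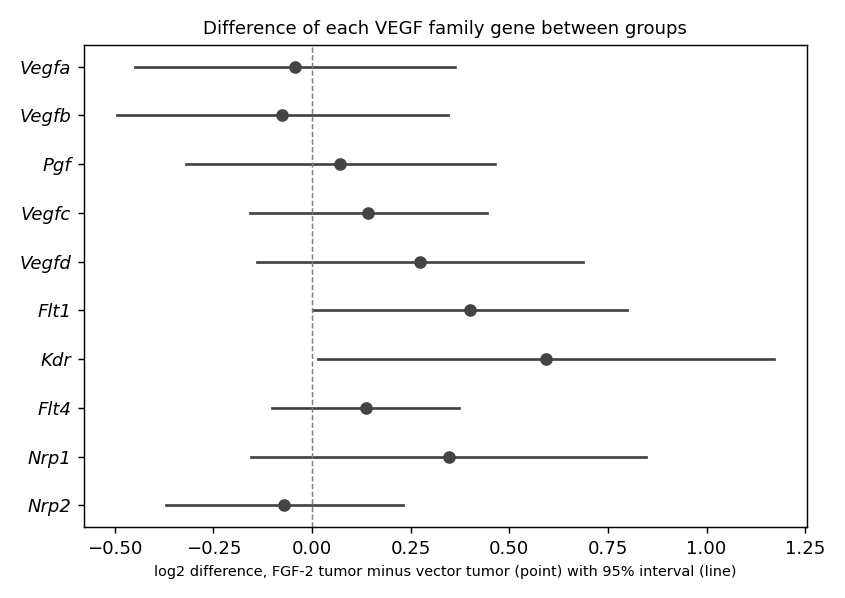
Difference in log2 expression level, FGF-2 tumors minus vector tumors, with its 95% interval from limma for the 9 genes and Vegfd. Kdr and Flt1 have intervals that start just above 0, at 0.02 and 0.00, and the intervals of the others include 0.

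Over the 9 genes, 0 were called higher and 0 lower at an adjusted p under 0.05, against 1.03% of all 22180 genes called higher in FGF-2 tumors and 0.284% called lower. The groups of 3 arrays did not overlap for 0 of the 9 genes, against 21.2% of all genes. An unadjusted p under 0.05 was reached by 2 of the 9, Kdr and Flt1, against 14.6% of all genes, and by 0 of the 9 in the methods' t-test. Means were higher in FGF-2 tumors for 6 of the 9 genes and lower for 3, against 45.8% higher among all genes. The median log2 difference was 0.14 for the 9 genes and -0.02 for all genes.

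The spread within groups was a part of what set how small a difference could be seen. The limma test also draws the variance of each gene toward that of all genes, and a call depended on the adjustment over all genes. The SD within groups was 0.445 for Kdr and 0.375 for Nrp1, and 98.6% and 96.6% of all genes had a smaller one, while the median over all genes was 0.156. For Vegfb, Vegfa, Flt1 and Pgf, between 87.7% and 91.3% of genes had a smaller SD. Vegfc and Nrp2 lay near the middle of all genes, with 57.6% and 57.5% below them. Flt4 had an SD of 0.0753, and 9.26% of genes had a smaller one. Its levels, 5.31 to 5.56, were not far above the array medians of 4.93 to 5.01. The means of Flt4 and Pgf were not above the median mean of all genes.

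**Figure D3:**
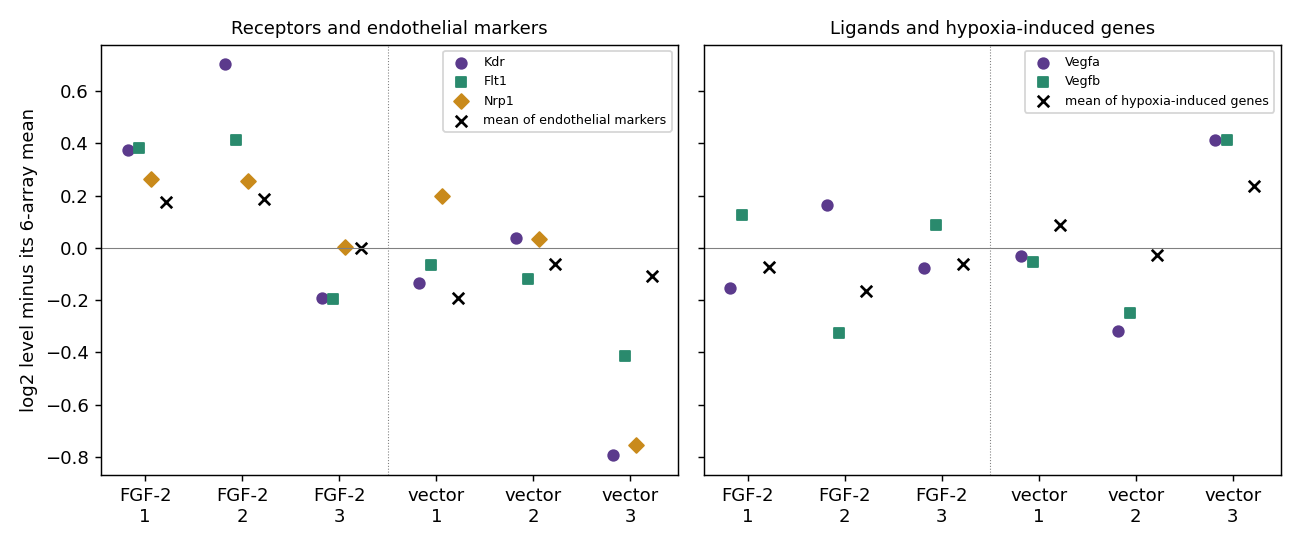
Log2 level minus the mean of the 6 arrays, for each array, of Kdr, Flt1, Nrp1 and the mean of the endothelial markers (left) and of Vegfa, Vegfb and the mean of the hypoxia-induced genes (right). Replicate 3 of the vector group is the lowest for the 3 receptors and the highest for the 2 ligands and the hypoxia-induced genes, whereas its endothelial mean lies between those of the other vector arrays. Within the FGF-2 group, replicate 3 is the lowest for the 3 receptors and for the endothelial mean. Replicate 2 of that group has the lowest mean of the hypoxia-induced genes but a Vegfa level above the mean of the 6 arrays.

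Since Kdr, Flt1 and Nrp1 are carried by endothelial cells, they were set beside endothelial markers. Of 25 such markers, 24 were measured. Endomucin (Emcn), a sialomucin of venous and capillary endothelium, was the 1 called higher, with 5.08, 5.29 and 4.36 in FGF-2 tumors and 3.86, 3.72 and 3.67 in vector tumors (log2 difference 1.15, limma adjusted p = 0.0363). With single arrays left out it passed only without replicate 3 of the FGF-2 group, and the adjusted p was otherwise 0.0646 to 0.169. Its levels in the vector arrays and in replicate 3 of the FGF-2 group lay below the array medians of 4.93 to 5.01. The mean was higher in FGF-2 tumors for 20 of the 24 and the median log2 difference was 0.15. The list's mean level was 5.56, 5.57 and 5.38 in FGF-2 tumors and 5.19, 5.32 and 5.28 in vector tumors, so all FGF-2 arrays lay above all vector arrays. The mean of the macrophage and monocyte markers was 10.57, 10.63 and 10.43 in FGF-2 tumors and 10.71, 10.72 and 10.36 in vector tumors. Like Kdr, Flt1 and Nrp1, it was lowest in replicate 3 of each group. Unlike these genes, which were highest in replicates 1 and 2 of the FGF-2 group, it was highest in replicates 1 and 2 of the vector group. Within the FGF-2 group the endothelial mean was also lowest in replicate 3, but within the vector group it was lowest in replicate 1. The parts of endothelial cells, macrophages and other cells in the receptor values were not tested.

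Single endothelial markers differed from each other in their order over the arrays. Pecam1, an adhesion molecule of endothelial cells that some leukocytes also carry, read 8.88, 8.74 and 8.55 in FGF-2 tumors and 8.83, 9.07 and 7.77 in vector tumors (log2 difference 0.17, limma adjusted p = 0.839). Like Kdr and Nrp1 it was lowest in replicate 3 of the vector group. Cdh5, the cadherin of endothelial junctions, read 8.31, 8.12 and 7.33 in FGF-2 tumors and 6.999, 7.19 and 7.66 in vector tumors, where that same replicate was the highest of its group (log2 difference 0.64, limma adjusted p = 0.291). Further markers with large differences that did not pass were the phosphatase Ptprb (0.79, adjusted p = 0.0582) and the adhesion receptor Adgrl4 (0.71, adjusted p = 0.172).

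The level of each receptor was also taken relative to the mean of the endothelial markers on the same array. Kdr stood at 3.19 ± 0.35 above that mean in FGF-2 tumors and 2.84 ± 0.44 in vector tumors, on the log2 scale (SD, n = 3 each). Because probe sets differ, only the difference of this offset between groups is read. The list's mean, 5.19 to 5.57, was not far above the array medians of 4.93 to 5.01. The difference of 0.35 did not exceed the spread (exact permutation p = 0.4, adjusted p = 0.625 over 5 receptors). It was 0.10 without replicate 3 of the vector group. The relative difference was 0.16 for Flt1, -0.11 for Flt4, 0.11 for Nrp1 and -0.31 for Nrp2, and the exact permutation p lay between 0.2 and 1. The smallest p that this permutation test allows is 0.1.

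Lymphatic endothelial markers were given beside Flt4, Vegfc and Nrp2. Of 9 listed, 8 were measured, 0 were called, 6 had means that were higher in FGF-2 tumors and the median log2 difference was 0.15. Lyve1, a hyaluronan receptor that macrophages also carry, read 7.85, 8.23 and 7.09 in FGF-2 tumors and 7.17, 6.58 and 7.02 in vector tumors (0.80, limma adjusted p = 0.208). Podoplanin (Pdpn), which fibroblasts also carry, differed by 0.38 (adjusted p = 0.215), and Mmrn1, an endothelial and platelet protein, by -0.20 (adjusted p = 0.426).

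For the pair of genes with the smallest p, the 5 genes most like each over the 6 arrays were found by the root mean square of the differences between centred log2 levels. For Kdr these were Lysmd3 (0.0690), Gda (0.0741), Gm3414 (0.0997), Ddx60 (0.107) and Loxl3 (0.108). For Flt1 they were Stk17b (0.0591), Mtr (0.0697), Xrcc4 (0.0859), Tmem87b (0.0877) and Elmod2 (0.0885). The receptor genes of the family were not among them.

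The promoters were read because VEGF and its receptors are known targets of hypoxia-inducible factors. The 250 bases before 1 or 2 annotated starts of each gene were taken from RefSeq (GRCm38.p6), which gave 11 windows for the 9 genes. The core of the hypoxia-response element was searched as ACGTG or GCGTG on both strands, and was found 11 times in 7 windows of 7 genes. Of all 32851 windows of this length, 38.6% held it. Vegfc and Flt4 had none, and for Vegfa both matches lay in the window of an internal start. Bases farther than 250 before a start were not searched, so a window without a match does not show that the gene lacks a hypoxia-response element. GGGCGG, the box that Sp1 binds, was in 10 of the 11 windows and in 32.7% of all windows. The GC content of the 11 windows was 59.2% to 76.4%. That of all windows was not computed, and the shares over all windows were not matched for it. Both motifs are themselves rich in G and C, and the part of base composition in these counts was not tested. The stretches around the matches are shown for Kdr, Flt1 and Nrp1, the genes with the largest differences, 5′ to 3′ on the strand of the gene. Capitals mark the match, which for Flt1 and Nrp1 is read on the opposite strand.
Kdr (chr5:75978569-75978598, minus strand, first base at -131 from the start): gtgggggagtggGCGTGggaaaccgggaaa
Kdr (chr5:75978527-75978556, minus strand, first base at -89): atccagtgggggGCGTGgccggacgcaggg
Flt1 (chr5:147726178-147726207, minus strand, first base at -184): ctagcgccaccgCACGCgcgctctggcccc
Nrp1 (chr8:128358895-128358924, plus strand, first base at -166): caaccgggaaagCACGCggagagaaacttg
All 4 hold GCGTG on 1 strand. A match describes the letters only and was not measured as a binding site in these cells.

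Genes that control Vegfa transcription were then examined. Of 18, 1 was called higher in FGF-2 tumors and 0 lower, 7 had a higher mean and the median log2 difference was -0.02. The gene called was Epas1, the gene of HIF-2α, a subunit of hypoxia-inducible factors. It read 7.20, 7.43 and 6.78 in FGF-2 tumors and 5.92, 6.12 and 5.55 in vector tumors, and the groups were well apart. The log2 difference was 1.27 ± 0.19 (SE, limma adjusted p = 0.0149), and the adjusted p was 0.0916 without replicate 1 of the FGF-2 group, 0.0644 without its replicate 2 and 0.0511 without replicate 1 of the vector group. Hif1a, which encodes HIF-1α, differed by 0.15 (adjusted p = 0.594). The prolyl hydroxylases that mark HIF subunits for degradation had log2 differences of -0.76 for Egln3 (adjusted p = 0.261) and -0.46 for Egln1 (adjusted p = 0.109).

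Hypoxia-induced genes, of which Vegfa is itself a classical member, mostly had lower means in FGF-2 tumors, with calls in both directions. Of 38 listed, 34 were measured, 1 was called higher and 2 lower, and the mean was lower in FGF-2 tumors for 28. The median log2 difference was -0.18, against -0.02 over all genes. The mean level of the list was 7.79, 7.70 and 7.80 in FGF-2 tumors and 7.95, 7.83 and 8.10 in vector tumors, so the groups did not overlap. Replicate 3 of the vector group, the array with the highest Vegfa, was the highest. The other arrays did not keep the order of Vegfa. Replicate 2 of the FGF-2 group had the lowest list mean with a Vegfa level of 7.91. Replicate 2 of the vector group had the lowest Vegfa, 7.43, with a list mean above all FGF-2 arrays. Adm, which encodes the vasodilator peptide adrenomedullin, read 5.53, 5.70 and 5.85 in FGF-2 tumors and 7.50, 7.29 and 8.74 in vector tumors. It fell by 2.15 on the log2 scale (limma adjusted p = 0.0137). Bnip3, a mitophagy gene, fell by 0.64 (adjusted p = 0.0447), and Lox, which encodes the collagen crosslinking enzyme lysyl oxidase, rose by 1.74 (adjusted p = 0.00849). Without replicate 1 or replicate 2 of the FGF-2 group the list had 0 calls in either direction, with adjusted p of 0.0661 and 0.0541 for Lox and of 0.0880 and 0.0648 for Adm, and Bnip3 reached 0.187 without the first of these. Bnip3 also missed the threshold without replicate 3 of the FGF-2 group (0.143) and without replicate 1 (0.124) or 3 (0.0676) of the vector group, and when arrays were centred on their medians (0.0538).

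**Figure D4:**
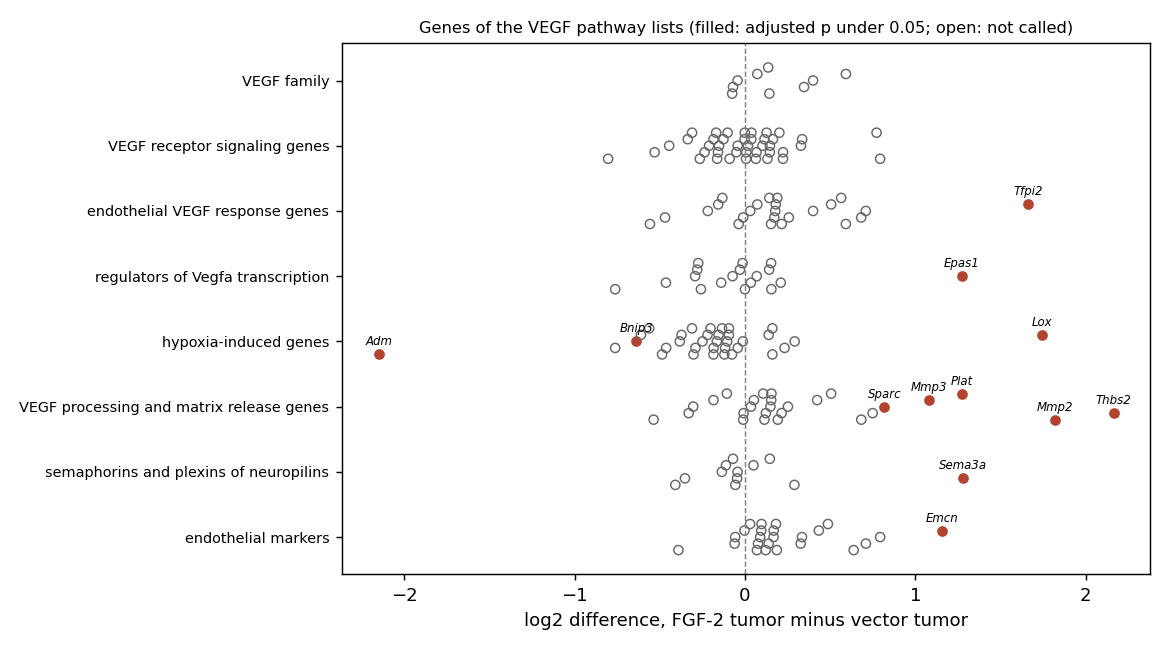
Log2 difference, FGF-2 tumors minus vector tumors, of every measured gene in the lists of VEGF pathway genes and of endothelial markers, with filled, named points for genes called at an adjusted p under 0.05, open points for the others and a dashed line at 0. The list of VEGF processing and matrix release genes has the most calls, 5 higher and 0 lower of 27 genes. The receptor signaling genes have 0 of 41.

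VEGF isoforms are held by and freed from the extracellular matrix, and a list of genes tied to these steps was read. Of 29 listed, 27 were measured, and 5 were called higher and 0 lower, against 1.03% and 0.284% of all genes. A higher mean was seen for 20, with a median log2 difference of 0.15. Thbs2, which encodes the antiangiogenic matrix protein thrombospondin-2, read 8.86, 9.19 and 8.76 in FGF-2 tumors and 6.67, 7.34 and 6.31 in vector tumors (2.17 ± 0.24 SE, limma adjusted p = 0.00349). Mmp2, a gelatinase, read 9.65, 9.56 and 9.17 in FGF-2 tumors and 7.51, 8.22 and 7.19 in vector tumors (1.82, adjusted p = 0.00785). Groups did not overlap for either gene.

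Plat, which encodes tissue plasminogen activator, rose by 1.28 (limma adjusted p = 0.00612), the stromelysin gene Mmp3 by 1.08 (adjusted p = 0.0310) and Sparc, which encodes a matrix protein that binds VEGF, by 0.82 (adjusted p = 0.0261). The count of 5 was 1 without replicate 1 of the FGF-2 group, 2 without its replicate 2, and 3 without replicate 1 of the vector group, and 7 higher with 1 lower without replicate 3 of the vector group. Thbs2 passed with each array left out. Mmp2 had an adjusted p of 0.0635 without replicate 1 and 0.0507 without replicate 2 of the FGF-2 group, Plat had 0.0539 without the first of these, and Mmp3 and Sparc each missed the threshold in 4 of the 6 fits with 1 array left out, with adjusted p up to 0.152 and 0.140. Thbs2, Mmp2 and Sparc are also made by fibroblasts, whose markers were higher in FGF-2 tumors as given above. The part of fibroblasts in these values, and in those of Mmp3, Plat and Lox, was not tested.

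Semaphorins and plexins share the neuropilins with VEGF. Of 12, 1 was called higher and 0 lower, 4 had a higher mean and the median log2 difference was -0.05. Sema3a, which encodes a secreted neuropilin-1 ligand that repels axons and restrains vessel growth, read 5.46, 5.28 and 5.17 in FGF-2 tumors and 3.85, 3.999 and 4.22 in vector tumors. The lowest FGF-2 array was far above the highest vector array. These are low levels: the vector arrays lay below the array medians of 4.93 to 5.01 and the FGF-2 arrays not far above them. The log2 difference was 1.28 ± 0.13 (SE, limma adjusted p = 0.00282), and it passed with each array left out. Among the plexins, which carry the semaphorin signal into the cell, Plxna2 differed by -0.41 (adjusted p = 0.181) and Plxna4 by -0.35 (adjusted p = 0.628).

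Downstream of the receptors, 41 of 47 signaling genes were measured and 0 were called in either direction. An unadjusted limma p under 0.05 was found for 8 of the 41, against 14.6% of all genes. The count of calls was 1 higher without replicate 3 of the FGF-2 group, and 1 higher and 1 lower without replicate 3 of the vector group. Higher means were seen for 21 and lower for 20, with a median log2 difference of 0.01. The largest differences were those of Bcar1, an adaptor of focal adhesions (-0.80, limma adjusted p = 0.203), Ptprb (0.79), the vascular phosphatase named above, which acts on VEGFR2, and Yes1, a Src family kinase (0.77, adjusted p = 0.0588). Of 24 genes that endothelial cells are known to switch on after VEGF, a list that also holds Pgf, Kdr and Flt1, 1 was called higher and 0 lower, against 2 higher without replicate 1 of the vector group and 2 higher and 1 lower without its replicate 3. Of the 24, 17 had a higher mean and the median log2 difference was 0.17.

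The gene called was Tfpi2, a serine protease inhibitor of the matrix, with 6.80, 6.72 and 6.18 in FGF-2 tumors and 4.86, 5.17 and 4.68 in vector tumors. The lowest FGF-2 array was above the highest vector array (log2 difference 1.66 ± 0.19 SE, limma adjusted p = 0.00380), and the gene passed with each array left out. Nid2, a basement membrane protein, differed by 0.71 (adjusted p = 0.122), and Angpt2, the angiopoietin that loosens contacts between vessels and pericytes, by 0.68 (adjusted p = 0.118).

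Genes that tissue dissociation is known to induce were read as a sign of how cells were handled. Of 22, 0 were higher and 3 lower in FGF-2 tumors (Hspa1b, Hspa1a and Fos, of which Fos had an adjusted p up to 0.0926 with 1 array left out), the median log2 difference was -0.35, and the array means were 8.37 to 8.45 in FGF-2 tumors and 8.64 to 9.06 in vector tumors. The part of handling in the values of the VEGF genes was not tested.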

How the data were processed

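The authors deposited log2 expression levels, normalized by a service laboratory; Affymetrix Expression Console is named in the submitters' processing notes, and its version, summarization method and annotation build are not given in the sources used here. The 6 arrays had 0 unused sample columns. GEO's platform annotation gave 1 gene symbol for 23521 of the 33793 probe sets, more than 1 for 1820 and no symbol for 8452. Of the 22180 genes, 1082 had several probe sets, and 21994 were found in RefSeq's gene table.

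FGF-2 tumors were compared with vector tumors in R 4.3.3 with limma 3.58.1 (lmFit and eBayes, constant prior variance, two-sided, Benjamini-Hochberg over all genes). A gene was called at an adjusted p under 0.05. Single values had exact permutation tests over arrays. The fit was tested on simulated data. The labels call the samples biological replicates, and 3 arrays a group limit the precision.

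The members and lists were chosen with earlier results of these data known. Named genes are the 9 members, Vegfd, and from each pathway, endothelial and lymphatic list the called genes, up to 4 by size of difference, or the largest until 3 were named; of the other marker lists, counts are given and only some genes named. Hif1a, Pecam1, Cdh5, Cspg4 and Sparc were added after their values were seen. Alternatives were a replicate block, other normalizations, filters and probe set summaries, another prior, array weights, the methods' t-test and each array left out.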

Additional observations from a re-analysis of the deposited data

How the results depend on the processing

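None of the 9 genes was called under any alternative other than the replicate block, which called 1, Kdr (log2 difference 0.59, limma adjusted p = 0.0333). The replicate numbers are not a pairing that the labels explain. Deviations of same-numbered arrays correlated at -0.02, 0.19 and 0.26 for replicates 1, 2 and 3, and those of differently numbered arrays at -0.26 to 0.13. In both groups, replicates 2 and 3 correlated best with their own number and replicate 1 did not. Whether same-numbered samples were handled together was not tested. With each array left out, 0 of the 9 were called. Over all genes 291 were called, against 494 with the replicate block, 554 with array quality weights, 2 with the methods' t-test and 75 to 439 with 1 array left out, the last without vector replicate 3.

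Directions near 0 turned. Vegfa was 0.023 with array quality weights, and with 1 array left out lay between -0.21 and 0.15, above 0 without FGF-2 replicate 1 (0.022) and vector replicate 3. Vegfb was 0.066 with array quality weights and otherwise -0.22 to 0.11, above 0 without FGF-2 replicate 2 (0.069) and vector replicate 3. Pgf was -0.058 to 0.24 and lay below 0 without FGF-2 replicate 3 (-0.055) and vector replicate 2. Nrp2 was -0.18 to 0.050, above 0 without vector replicate 3. Nrp1 relative to endothelial markers was -0.19 to 0.33, below 0 without vector replicate 3. The cause was not tested. Kdr ranged from 0.34 to 0.84, Flt1 from 0.29 to 0.60, Nrp1 from 0.056 to 0.53 and Vegfc from 0.036 to 0.23 over all alternatives. Pgf and Flt4 had no value under the filter on genes above the median mean. Of the genes named as called in the other lists, all but Hspa1a lost the call in the methods' t-test, and Cx3cr1 (adjusted p = 0.0512) and Lyz1 (0.0603) did so with arrays centred on the median. Ighm lost it with the mean of its probe sets (0.126). The receptor signaling genes had 2 calls with arrays centred on the median or weighted by quality, 1 after further quantile normalization, and 1 higher and 1 lower with the replicate block (Yes1, adjusted p = 0.0163, and Bcar1, 0.0356). The block also called Nid2 (0.0352) and Egln3 (0.0315). Sema3a and Emcn were not among the genes tested under the filters on low means, so their lists had 0 calls there.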
